A study of Homo sapiens with 12 samples.

Results

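TOP1MT and 8 other genes that keep mitochondrial DNA (mtDNA) copied, packed and transcribed were followed in 2 human hepatoma cell lines after knockdown (KD) of UBL5, a small ubiquitin-like protein. The genes were TOP1MT, TFAM, POLG, POLG2, TWNK, POLRMT, TFB1M, TFB2M and SSBP1, 9 of the 15781 genes listed with read counts in both lines, and all 9 passed the filter on low counts in both. The set was chosen by the measured change of TOP1MT, which was much higher with UBL5 siRNA in both lines, so the change of TOP1MT is given as a description without a test. The other 8 genes were added for what they do, with earlier results of these data known. The series held 12 RNA-seq libraries: HepG2 with UBL5 siRNA, HepG2 with Ctrl-siRNA, Huh7 with UBL5 siRNA and Huh7 with Ctrl-siRNA, 3 libraries each. Ctrl-siRNA was a non-targeting siRNA. Both lines were established from human liver tumours, were labelled wild type, and were collected at a labelled time of 52 hours, although the study's descriptions differ on the time, under the same transfection reagent. A KD by 1 siRNA in tumour lines is the model throughout, and nothing in the labels says whether the 3 libraries of a group came from separate cultures, so a p-value here reflects how far these libraries scatter, and that scatter may be technical.

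Human mtDNA is a small circle, present in many copies per cell and bound into nucleoids by TFAM. It is copied by the polymerase POLG with its accessory subunit POLG2, behind the helicase TWNK and with SSBP1 covering the exposed single strand. It is transcribed by POLRMT, which starts at the promoters together with TFAM and TFB2M, and the RNA made there also provides primers for replication. TOP1MT is the topoisomerase dedicated to mitochondria and takes out the twist that both processes put into the circle. All 9 proteins are encoded in the nucleus, so their transcripts were counted as nuclear genes.

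UBL5 itself averaged 4.66 ± 2.06 CPM with UBL5 siRNA and 58.2 ± 2.51 CPM with Ctrl-siRNA in HepG2 (SD, n = 3 each), 92.0% fewer. In Huh7 it averaged 6.31 ± 0.45 CPM with UBL5 siRNA and 68.6 ± 1.91 CPM with Ctrl-siRNA (SD, n = 3 each), 90.8% fewer. CPM are counts as a share of the library total, after scaling by TMM, a factor per library that assumes most genes do not change. Totals per library ran between 19469574 and 29744471 counts. The HepG2 Ctrl-siRNA library 3 had no count for 1773 of the listed genes, while the other HepG2 libraries lacked 159 to 233, and all 9 genes of the set had counts in it. Both HepG2 libraries numbered 3 carried column names of another form than all other libraries, and what lies behind that was not tested. The coefficient of variation between libraries of a group, as fitted by edgeR, was 0.189 in HepG2 and 0.0663 in Huh7. Counts of genes that pass a test therefore do not compare directly between the lines. The 12 hepatoma identity genes, among them ALB and AFP, were all expressed in both lines. Of these, 6 rose and 0 fell in HepG2 (median log2 fold change 0.26), and 3 rose and 3 fell in Huh7 (median 0.04), with APOA1, FGB and HNF4A higher in both. Over all tested genes, 16.5% rose and 20.1% fell in HepG2, and 34.9% rose and 36.4% fell in Huh7. The part of the identity genes in the results was not tested. Endothelial and fibroblast markers summed to at most 35.3 CPM in any library. The leukocyte markers summed to 985.5 to 1263 CPM with UBL5 siRNA and 1637 to 2193 CPM with Ctrl-siRNA in HepG2, and to 338.03 to 354.6 CPM with UBL5 siRNA and 563.03 to 578.4 CPM with Ctrl-siRNA in Huh7, nearly all of it LYZ, while PTPRC and CD3E were not listed. LYZ fell in both lines, whereas CD14, another marker of that list, rose in both. CD14 averaged 6.29 CPM with UBL5 siRNA and 0.23 CPM with Ctrl-siRNA in HepG2, and 4.72 and 1.66 CPM in Huh7. The samples were cultured tumour lines and not tissue, so reads of these markers do not show that other cell types were present. In bulk RNA, fewer cells that express a gene and less RNA per cell cannot be told apart.

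TOP1MT had 50.4, 51.5 and 48.3 CPM in the HepG2 libraries with UBL5 siRNA, against 14.5, 10.8 and 12.9 CPM in those with Ctrl-siRNA. In Huh7 it had 52.3, 57.4 and 61.9 CPM with UBL5 siRNA and 8.39, 9.22 and 9.38 CPM with Ctrl-siRNA. Every UBL5 siRNA library was above every Ctrl-siRNA library of its line, and the KD libraries of both lines reached similar levels although the Ctrl-siRNA levels differed. The group means stood at 50.04 ± 1.61 CPM and 12.8 ± 1.84 CPM in HepG2, a ratio of 3.92, and at 57.2 ± 4.80 CPM and 8.995 ± 0.53 CPM in Huh7, a ratio of 6.36 (UBL5 siRNA, then Ctrl-siRNA, SD, n = 3 each). On the log2 scale the fitted difference was 1.97 in HepG2 and 2.67 in Huh7. These values rest on 931 to 1243 raw counts per UBL5 siRNA library and 259 to 388 per Ctrl-siRNA library in HepG2, and on 1062 to 1334 and 187 to 236 in Huh7.

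Few transcripts rose further than TOP1MT, which was chosen for its rise, so its rank is a description. In HepG2, 317 of 15755 tested genes had a larger log2 fold change, of which 153 were among the 12009 protein-coding genes. In Huh7, 95 of 16965 had a larger one, of which 38 were among the 12941 protein-coding genes. The gene lies on the minus strand of chr8:143304384-143359979 (GRCh38, ENSG00000184428), with 14 exons in its canonical transcript. Among the 5 tested genes on each side of it, 0 of 10 rose and 1 fell in HepG2, with a median log2 fold change of -0.31, while 2 rose and 5 fell in Huh7, with a median of -0.41. The median over all tested genes was 0.01 in HepG2, where 16.5% rose and 20.1% fell. It was -0.01 in Huh7, where 34.9% rose and 36.4% fell. ZNF696, a zinc finger gene that ends 4.43 kb away, had log2 fold changes of 0.07 in HepG2 and 0.28 in Huh7 and passed the test in neither. GSDMD, the pore-forming protein of pyroptosis, was the single neighbour that fell in both lines (-0.96 in HepG2, -0.37 in Huh7).

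**Figure D1:**
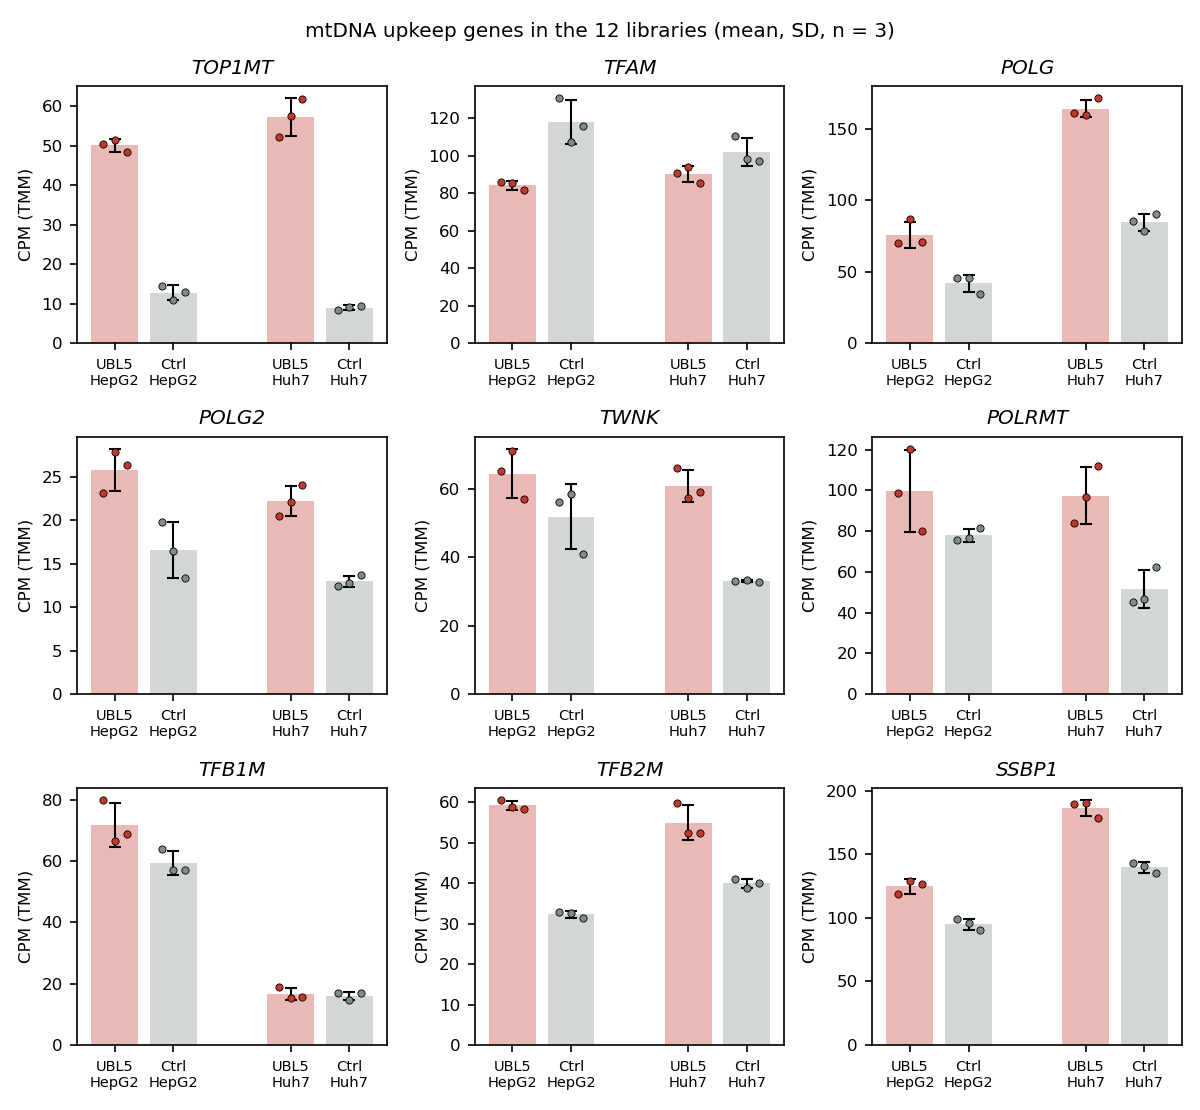
Expression of the 9 genes in every library, in TMM-scaled CPM on axes that start at 0, with UBL5 siRNA in red left of Ctrl-siRNA in grey for each line. Points are libraries 1 to 3, bars are means and whiskers the SD (n = 3 each). TOP1MT averaged 50.04 against 12.8 CPM in HepG2 and 57.2 against 8.995 CPM in Huh7, and TFAM is the gene that stands lower with UBL5 siRNA in both lines.

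Most of the other 8 genes were also higher with UBL5 siRNA, by less than a doubling. In HepG2, 4 of the 8 rose, 1 fell and 3 did not pass the test (edgeR quasi-likelihood test, Benjamini-Hochberg adjusted p under 0.05 over all genes). With the replicate number as a block, 6 of the 8 rose and 1 fell. Over all genes tested in HepG2, 16.5% rose and 20.1% fell. In Huh7, 6 of the 8 rose, 1 fell and 1 did not pass, where 34.9% of all genes rose and 36.4% fell. The median log2 fold change of the 8 was 0.37 in HepG2 and 0.62 in Huh7, against 0.01 and -0.01 over all genes. POLG, POLG2, TFB2M and SSBP1 rose in both lines, and TFAM fell in both. The UBL5 siRNA and Ctrl-siRNA libraries did not overlap for 6 of the 8 genes in HepG2 and 7 of the 8 in Huh7, as for 53.0% and 73.9% of all tested genes.

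POLG, the catalytic subunit of the only replicative DNA polymerase of mitochondria, had 70.2, 86.6 and 70.6 CPM with UBL5 siRNA in HepG2, against 45.3, 45.4 and 34.7 CPM with Ctrl-siRNA. The Huh7 libraries had 161.3, 160.1 and 171.5 CPM with UBL5 siRNA and 85.2, 78.2 and 90.3 CPM with Ctrl-siRNA. The groups stood well apart in each line. The log2 fold change was 0.86 (SE 0.14, edgeR adjusted p = 0.0017) in HepG2 and 0.96 (SE 0.06, adjusted p = 5.5e-08) in Huh7. POLG lies on the minus strand of chr15:89305198-89334861, and 14.99% of its exon bases are shared with POLGARF, a second reading frame annotated on the same strand, whose reads cannot be told apart from those of POLG over that stretch.

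POLG2 (minus strand of chr17:64477785-64497054), which holds POLG on its template, was the least counted of the replication genes. It had 23.1, 27.8 and 26.4 CPM with UBL5 siRNA in HepG2 and 19.8, 16.5 and 13.3 CPM with Ctrl-siRNA. In Huh7 it had 20.5, 22.1 and 24.0 CPM with UBL5 siRNA and 12.4, 12.7 and 13.7 CPM with Ctrl-siRNA. All UBL5 siRNA libraries were above all Ctrl-siRNA libraries of the same line. The log2 fold change was 0.64 (SE 0.16, edgeR adjusted p = 0.015) in HepG2 and 0.78 (SE 0.09, adjusted p = 6.9e-06) in Huh7. The HepG2 call was lost without Ctrl-siRNA library 2 (adjusted p = 0.051) or UBL5 siRNA library 2 (adjusted p = 0.053), in a range of 0.0011 to 0.053 over all alternatives.

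SSBP1 (plus strand of chr7:141738334-141787922), which coats single-stranded mtDNA at the fork, had 118.3, 129.2 and 126.4 CPM with UBL5 siRNA in HepG2, against 98.7, 96.1 and 90.2 CPM with Ctrl-siRNA. Huh7 libraries had 189.1, 190.3 and 178.8 CPM with UBL5 siRNA and 143.4, 140.5 and 134.9 CPM with Ctrl-siRNA. The rise was modest and of nearly the same size in each line, at a log2 fold change of 0.39 (SE 0.08, edgeR adjusted p = 0.0064) in HepG2 and 0.41 (SE 0.05, adjusted p = 8.8e-06) in Huh7. The difference between the lines was 0.01 (SE 0.09) on the log2 scale, HepG2 minus Huh7.

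TWNK (plus strand of chr10:100987367-100994403), the replicative helicase, rose in Huh7. In Huh7 it had 66.2, 57.4 and 59.2 CPM with UBL5 siRNA and 32.98, 33.42 and 32.89 CPM with Ctrl-siRNA, well apart, with a log2 fold change of 0.88 (SE 0.07, edgeR adjusted p = 2.8e-07). In HepG2 it had 65.2, 71.2 and 57.0 CPM with UBL5 siRNA and 56.1, 58.5 and 41.0 CPM with Ctrl-siRNA, and the groups overlapped. Library 3 was the lowest of both HepG2 groups. The log2 fold change there was 0.32 (SE 0.15) and did not pass the test (adjusted p = 0.13), whereas with the replicate number as a block it was 0.32 and passed (adjusted p = 0.023), as it did with all 12 libraries in 1 fit (0.035). The range over all alternatives was 0.023 to 0.28.

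TFAM (plus strand of chr10:58385345-58399220), which bends and packs mtDNA and also acts at its promoters, went the other way. It had 86.1, 85.2 and 81.5 CPM with UBL5 siRNA in HepG2, against 130.6, 107.1 and 116.1 CPM with Ctrl-siRNA, with no overlap. In Huh7 it had 91.0, 94.1 and 85.5 CPM with UBL5 siRNA and 110.3, 98.0 and 97.1 CPM with Ctrl-siRNA, closer but still without overlap. TFAM fell by 0.48 on the log2 scale in HepG2 (SE 0.10, edgeR adjusted p = 0.0046) and by 0.18 in Huh7 (SE 0.06, adjusted p = 0.022). The Huh7 call was lost without Ctrl-siRNA library 1 (adjusted p = 0.092), without UBL5 siRNA library 1 (0.053) or 3 (0.10), and with all 12 libraries in 1 fit (0.052), in a range of 0.0034 to 0.10 over all alternatives.

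POLRMT (minus strand of chr19:617221-633537), the RNA polymerase of mitochondria, had 83.9, 96.5 and 111.8 CPM with UBL5 siRNA in Huh7, against 45.3, 46.8 and 62.2 CPM with Ctrl-siRNA. These groups were apart, and the log2 fold change was 0.93 (SE 0.12, edgeR adjusted p = 3.3e-05). In HepG2 it had 98.6, 120.2 and 80.1 CPM with UBL5 siRNA and 75.6, 76.8 and 81.6 CPM with Ctrl-siRNA. UBL5 siRNA library 3 lay inside the range of the Ctrl-siRNA libraries. The HepG2 log2 fold change was 0.35 (SE 0.14) and did not pass (adjusted p = 0.078), but it did without UBL5 siRNA library 3 (0.014), without library 3 of both siRNAs (0.0031) and by DESeq2 (0.027), in a range of 0.0031 to 0.23 over all alternatives.

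TFB2M (minus strand of chr1:246540561-246566261), which melts the mtDNA promoters for POLRMT, had 60.5, 58.8 and 58.5 CPM with UBL5 siRNA in HepG2, against 32.97, 32.56 and 31.32 CPM with Ctrl-siRNA. With UBL5 siRNA in Huh7 it had 59.96, 52.43 and 52.54 CPM, against 41.0, 38.8 and 40.2 CPM with Ctrl-siRNA. Libraries of 1 group lay close together, and the groups were apart in both lines. The log2 fold change was 0.88 (SE 0.09, edgeR adjusted p = 0.00025) in HepG2 and 0.46 (SE 0.07, adjusted p = 7.1e-05) in Huh7.

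TFB1M (minus strand of chr6:155256134-155314493) resembles TFB2M in sequence but works as the methyltransferase of the small ribosomal RNA of mitochondria. Its level in Huh7 was 19.0, 15.4 and 15.8 CPM with UBL5 siRNA and 16.8, 14.6 and 16.8 CPM with Ctrl-siRNA, overlapping, with a log2 fold change of 0.06 (SE 0.10, edgeR adjusted p = 0.64). In HepG2 it had 79.8, 66.4 and 68.7 CPM with UBL5 siRNA, all above the 64.0, 57.0 and 57.2 CPM with Ctrl-siRNA. The log2 fold change of 0.27 there (SE 0.11) did not pass (adjusted p = 0.075), and with the replicate number as a block 0.27 passed (adjusted p = 0.027), as it did by DESeq2 (0.029) and with all 12 libraries in 1 fit (0.033). The range over all alternatives was 0.027 to 0.22. TIAM2 on the opposite strand shares 38.7% of the exon bases of TFB1M, and since the strand setting of the counting is not given in the sources used here, the value of TFB1M is uncertain.

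**Figure D2:**
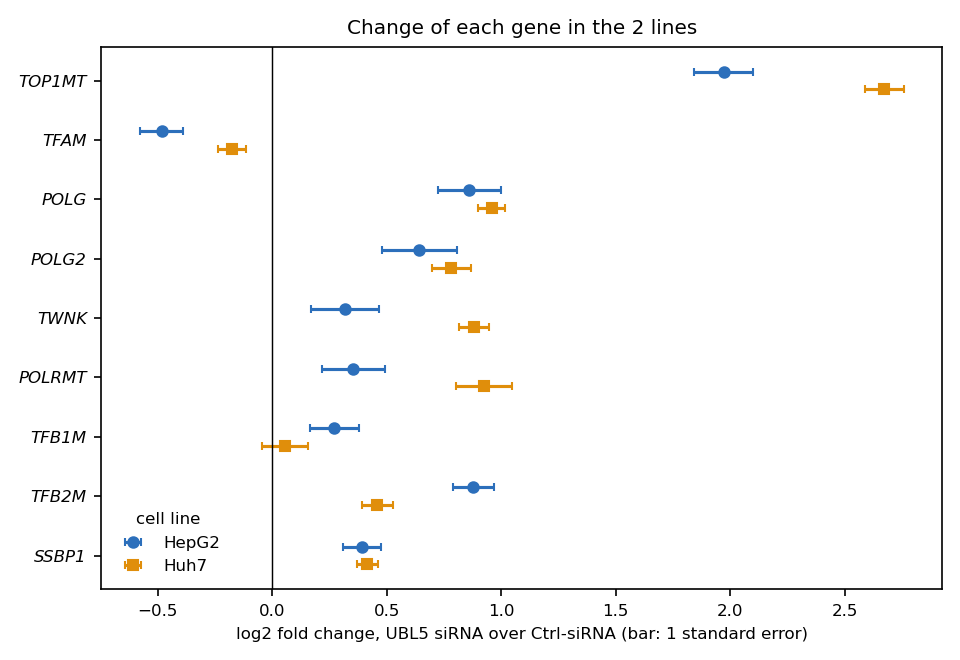
Log2 fold change of each gene, UBL5 siRNA over Ctrl-siRNA, in HepG2 (blue circles) and Huh7 (orange squares), with bars of 1 standard error from edgeR. TOP1MT stands at 1.97 and 2.67, to the right of all others, and TFAM at -0.48 and -0.18 is the gene left of 0 in both lines.

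The promoters of genes for mtDNA upkeep are often described as bearing sites for NRF1 and for the ETS-family factor GABP, 2 regulators of mitochondrial biogenesis. The windows below show every match found in these genes, with that of SSBP1 given once. For 7 of the 9 genes, all but TOP1MT and TWNK, there was an entry in the RefSeq promoter set (GRCh38.p14, 250 bases before to 50 after a start). It was searched on both strands for GCGCATGC (reverse complement GCATGCGC, the core of the NRF1 site) and for CCGGAAG (reverse complement CTTCCGG, the core of the ETS site). The first was in 3.68% and the second in 12.2% of 27305 promoters. Each line gives 30 bases, read on the strand of the gene, with matched letters in capitals. Where 10 letters are in capitals, a palindrome matched on both strands at overlapping positions.
POLRMT, NRF1 core: agcgtccaccgGCGCATGCcttcgcgcctc
POLRMT, NRF1 core nearer the start: ggcggcgcggGCGCATGCGCaggcgcgggc
TFB1M, NRF1 core: gcaggacttaGCGCATGCGCtctcagcacg
TFB2M, NRF1 core: ctccgctgttcGCATGCGCaggctctagtg
POLG2, ETS core: cgcagacatgcgCTTCCGGggtggggcctg
POLRMT, ETS core: cctgggagtctaCTTCCGGctggggtttcc
TFB1M, ETS core: ccgcggtcatcgCTTCCGGtgggataggtc
SSBP1, ETS core: gttccctgtgcgCCGGAAGtgatcccctgc

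The POLRMT windows are at chr19:633651-633680 and chr19:633542-633571 for the NRF1 core and chr19:633613-633642 for the ETS core, all on the minus strand. Those of TFB1M are at chr6:155314597-155314626 and chr6:155314552-155314581, that of TFB2M at chr1:246566258-246566287 and that of POLG2 at chr17:64497096-64497125, on the minus strand as well. The SSBP1 window is at chr7:141738351-141738380 on the plus strand and was found in each of its 3 promoter entries. TFAM and POLG had neither set of letters in these 300 bases. POLRMT and TFB1M each held both cores. Their log2 fold changes were 0.35 for POLRMT and 0.27 for TFB1M in HepG2, where neither passed the test, and 0.93 and 0.06 in Huh7. A match is a description of letters and no evidence of binding. NRF1 was at 17.0 CPM with UBL5 siRNA and 19.7 CPM with Ctrl-siRNA in HepG2 and at 26.7 and 24.0 CPM in Huh7, and did not pass the test in either line. GABPA, the DNA-binding subunit of GABP, was at 12.1 and 12.4 CPM in HepG2 and at 15.8 and 15.2 CPM in Huh7, and did not pass either. GABPB1, the subunit of GABP that activates transcription, was at 56.8 CPM with UBL5 siRNA and 46.1 CPM with Ctrl-siRNA in HepG2 and at 67.3 and 41.8 CPM in Huh7, and rose in both (log2 fold change 0.30, edgeR adjusted p = 0.028, and 0.69, adjusted p = 2.8e-07).

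Levels can be set against each other between genes only per length of transcript. Per kb of the canonical transcript, TOP1MT was the lowest of the 9 genes with Ctrl-siRNA, at 6.57 ± 0.95 CPM per kb in HepG2 and 4.63 ± 0.27 CPM per kb in Huh7 (SD, n = 3). With UBL5 siRNA it ranked 4 of 9 in both lines, at 25.8 ± 0.83 CPM per kb in HepG2 and 29.5 ± 2.47 CPM per kb in Huh7. Its range there overlapped those of POLRMT and TFB1M, its neighbours in rank, in HepG2, and those of TFB2M and POLRMT in Huh7. SSBP1 was the highest in all 4 groups, at 184.1 ± 8.31 CPM per kb with UBL5 siRNA and 140.4 ± 6.42 CPM per kb with Ctrl-siRNA in HepG2. In Huh7 SSBP1 was at 274.9 ± 9.35 CPM per kb with UBL5 siRNA and 206.2 ± 6.37 CPM per kb with Ctrl-siRNA. TFAM ranked 2 of 9 with Ctrl-siRNA in HepG2, at 23.5 ± 2.36 CPM per kb, and 8 of 9 with UBL5 siRNA, at 16.8 ± 0.49 CPM per kb, although ranks 2 to 4 with Ctrl-siRNA and the 4 lowest with UBL5 siRNA did not separate beyond the spread of their libraries.

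**Figure D3:**
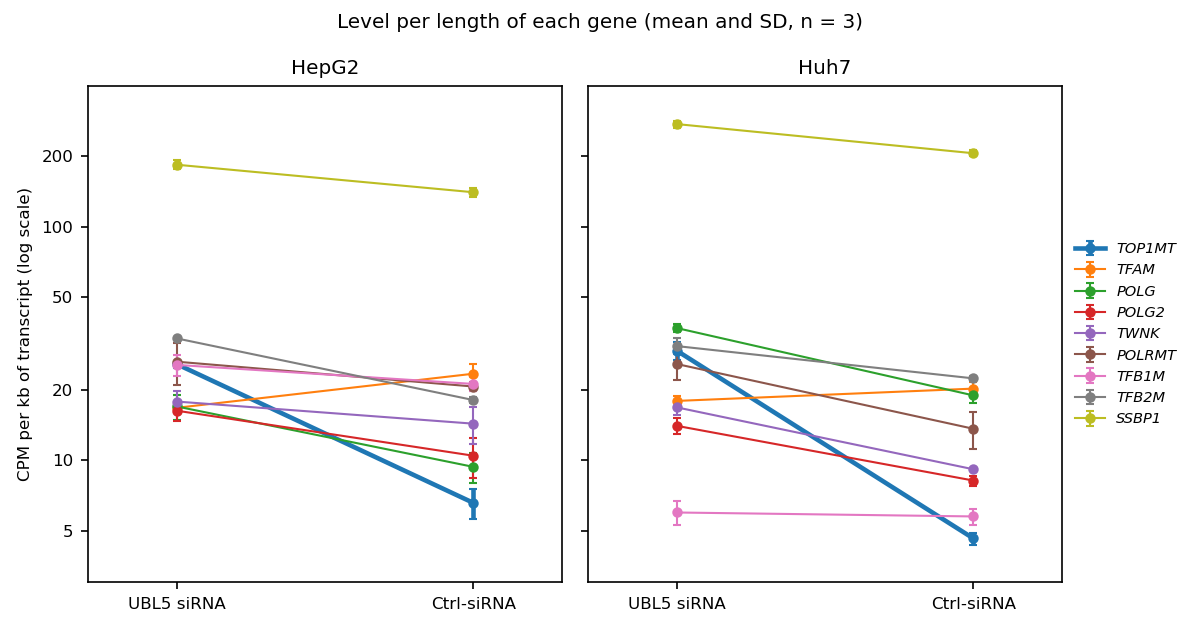
Mean level of each gene in CPM per kb of canonical transcript, on a log scale, with UBL5 siRNA left of Ctrl-siRNA in HepG2 and in Huh7 (whiskers: SD, n = 3 each). The thick line is TOP1MT, at 25.8 with UBL5 siRNA and 6.57 with Ctrl-siRNA in HepG2 and at 29.5 and 4.63 in Huh7, and SSBP1 lies above all others.

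The size of the change differed between the lines for some of the genes. Tested as an interaction of line and siRNA over all 12 libraries, 2 of the 8 genes besides TOP1MT passed, TWNK and TFB2M, where 21.5% of 15668 genes did. TWNK changed less in HepG2 than in Huh7, by -0.53 on the log2 scale (SE 0.17, edgeR adjusted p = 0.036). TFB2M changed more in HepG2, by 0.45 (SE 0.10, adjusted p = 0.0076). The TWNK call was kept without HepG2 Ctrl-siRNA library 3 or HepG2 UBL5 siRNA library 2 and was lost without any 1 of the other 10 libraries, in a range of 0.0011 to 0.093 over all alternatives, while that of TFB2M was kept without each of the 12. POLRMT had a difference of -0.54 (SE 0.21) and did not pass (adjusted p = 0.079), but it did without HepG2 UBL5 siRNA library 2 (0.029) and without Huh7 Ctrl-siRNA library 3 (0.030) and with the replicate number as a block (0.021), in a range of 0.021 to 0.19. For TFAM the difference was -0.28 (SE 0.11, adjusted p = 0.10), with a pass without HepG2 Ctrl-siRNA library 2 (0.045) in a range of 0.045 to 0.23. For TOP1MT it was -0.67, given as a description. POLG and POLG2, whose products form 1 enzyme, had differences of -0.07 (SE 0.15) and -0.11 (SE 0.19).

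The lines also differed in these genes before the KD. With Ctrl-siRNA, all 8 genes besides TOP1MT passed the test of HepG2 over Huh7, where 63.7% of all genes did. TFB1M stood farthest apart, 3.93-fold higher in HepG2 (log2 1.98, SE 0.11, edgeR adjusted p = 1.5e-09). TWNK (0.74), POLRMT (0.70), POLG2 (0.44) and TFAM (0.30) were higher in HepG2 as well, all as log2 differences. POLG was lower in HepG2 by a log2 of -0.93, SSBP1 by -0.46 and TFB2M by -0.22. The TFB2M difference (adjusted p = 0.019) was not called without Huh7 Ctrl-siRNA library 1 (0.092) or 3 (0.058), in a range of 0.0028 to 0.092. TOP1MT, given as a description, was 1.52-fold higher in HepG2 with Ctrl-siRNA. Line cannot be told apart from anything else that differed between the 2 sets of libraries, and the tables of the lines were deposited separately.

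Genes that work beside the 9 moved in both directions. For this and the lists that follow, the shares over all tested genes were 16.5% rising and 20.1% falling in HepG2. In Huh7 they were 34.9% rising and 36.4% falling. Of 18 accessory replication and nucleoid genes, 2 rose and 7 fell in HepG2 (median log2 fold change -0.18), and 8 rose and 8 fell in Huh7 (median -0.00), against medians of 0.01 and -0.01 over all genes. RNASEH1, which removes the RNA primers of mtDNA, fell in both lines (log2 fold change -1.38 in HepG2, -1.07 in Huh7). Another gene annotated on the same strand shares 17.1% of the exon bases of RNASEH1. MGME1, the exonuclease that trims displaced ends, fell as well (-0.998 and -0.81). ATAD3A, a membrane ATPase that contacts nucleoids, fell too (-1.35 and -0.32), and has close paralogs, ATAD3B and ATAD3C, between which reads may have been split, so its value is uncertain. Of 12 genes of base and end repair in mitochondria, 1 rose and 7 fell in HepG2 (median -0.38), while 5 rose and 4 fell in Huh7 (median 0.00). OGG1, the glycosylase for oxidised guanine, fell in both (log2 fold change -1.303 in HepG2, -0.61 in Huh7), with 28.98% of its exon bases shared with CAMK1 on the opposite strand. APEX1, the main endonuclease for abasic sites, fell (-1.06 in HepG2, -0.54 in Huh7), and so did APEX2 (-0.46 in HepG2, -0.60 in Huh7). NTHL1, a glycosylase for oxidised pyrimidines, fell in HepG2 (-0.68) and rose in Huh7 (0.26).

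The other topoisomerases and their partners mostly fell in HepG2. Of the 8 genes of that list tested in HepG2, 0 rose and 7 fell (median log2 fold change -0.56), where 16.5% of all genes rose and 20.1% fell. Of the 9 tested in Huh7, 3 rose and 4 fell (median -0.08), shares near those over all genes. TOP1, the nuclear counterpart of TOP1MT, was at 218 CPM with UBL5 siRNA and 321 CPM with Ctrl-siRNA in HepG2, where it fell (log2 fold change -0.56). In Huh7 it was at 241 CPM with UBL5 siRNA and 254 CPM with Ctrl-siRNA and did not pass the test. TOP3A, which separates finished mtDNA circles and also acts in the nucleus, fell in both lines (-0.77 in HepG2, -0.43 in Huh7). Its partners fell with it, RMI1 at -0.78 in HepG2 and -0.45 in Huh7 and RMI2 at -1.300 in HepG2 and -1.26 in Huh7. TOPBP1, a replication checkpoint protein that binds topoisomerase II, fell in HepG2 (-0.57) and rose in Huh7 (0.26).

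Of the genes that supply nucleotides for mtDNA, 4 of 19 rose and 8 fell in HepG2 (median log2 fold change -0.31), and 3 of 18 rose and 8 fell in Huh7 (median -0.03). RRM2, the small subunit of ribonucleotide reductase in dividing cells, fell in both lines (-1.37 in HepG2, -1.16 in Huh7). TYMS, thymidylate synthase, fell alike (-1.15 in HepG2, -1.14 in Huh7), and ENOSF1 on the opposite strand shares 47.9% of its exon bases. MPV17, an inner membrane protein whose loss depletes mtDNA, fell (-0.94 in HepG2, -1.29 in Huh7).

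Genes that act on mitochondrial transcripts moved in both directions. Of 7 genes of elongation and termination, 2 rose and 0 fell in HepG2 (median -0.09), and 3 rose and 2 fell in Huh7 (median 0.18). MTERF3, a repressor of mtDNA transcription in mice, rose in both lines (log2 fold change 0.97 in HepG2, 0.95 in Huh7). MTERF4, which brings a methyltransferase to the mitochondrial ribosome, rose as well (0.61 in HepG2, 0.31 in Huh7). SNED1 on the opposite strand shares 51.0% of the exon bases of MTERF4. Of the genes of RNA processing, modification and decay, 5 of 21 rose and 8 fell in HepG2 (median -0.05), and 12 of 22 rose and 6 fell in Huh7 (median 0.22). TRMT10C, a subunit of mitochondrial RNase P, rose by 0.95 in HepG2 and 0.96 in Huh7. MRM1, a methyltransferase of the large mitochondrial ribosomal RNA, fell in both (-2.41 in HepG2, -2.14 in Huh7), as did ANGEL2, a phosphatase of cyclic RNA ends (-0.91 in HepG2, -0.84 in Huh7). TBRG4, an RNA-binding protein of the FASTK family, fell in HepG2 (-0.36) and rose in Huh7 (0.38).

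Of the regulators of mitochondrial biogenesis, 4 of 16 rose and 1 fell in HepG2 (median log2 fold change -0.05), and 10 of 18 rose and 4 fell in Huh7 (median 0.21). Over all genes, 16.5% rose and 20.1% fell in HepG2, and 34.9% rose and 36.4% fell in Huh7. PPARGC1B, a coactivator of NRF1 and of the estrogen-related receptors, rose by 0.80 in HepG2 and 0.98 in Huh7, and TFEB, a regulator of lysosomal genes, by 0.86 and 0.35. PPARA, the receptor that drives fatty acid oxidation in liver, fell in both (-0.87 in HepG2, -1.04 in Huh7). Of 12 genes of fusion and fission, 1 rose and 2 fell in HepG2 (median 0.03), and 4 rose and 3 fell in Huh7 (median 0.09). OMA1, the stress protease that cuts OPA1, fell in both (-0.64 in HepG2, -0.94 in Huh7), and so did MFN1, an outer membrane fusion protein (-0.48 in HepG2, -0.54 in Huh7). MIEF1, which recruits the fission GTPase DNM1L, rose by 0.29 in HepG2 and 0.72 in Huh7.

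**Figure D4:**
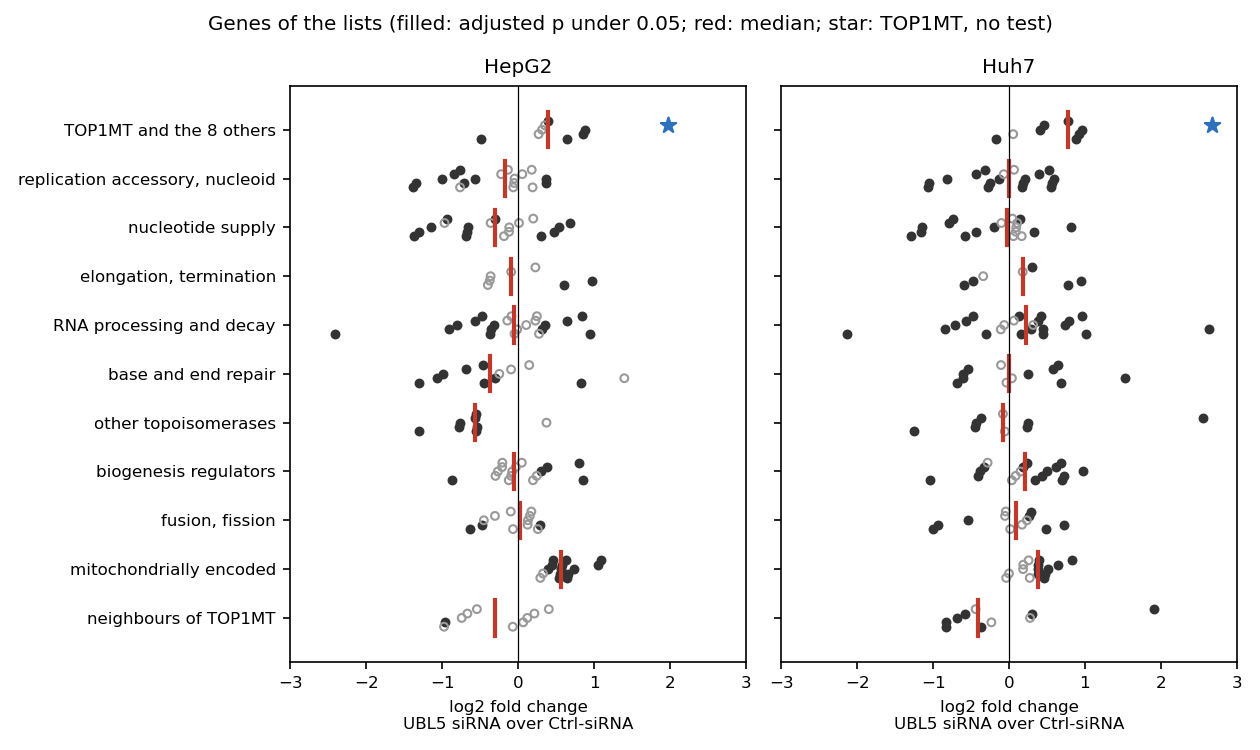
Log2 fold change, UBL5 siRNA over Ctrl-siRNA, of every tested gene in each list, for HepG2 and Huh7. Filled points passed the test (adjusted p under 0.05), open points did not, red lines are list medians and the star is TOP1MT, whose change is a description. The red line of the set, at 0.39 in HepG2 and 0.78 in Huh7, includes TOP1MT, whose rise chose the set. The 8 genes besides TOP1MT had medians of 0.37 and 0.62, and the mitochondrially encoded genes had 0.57 and 0.38.

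Of the transcripts of mtDNA itself, many rose with UBL5 siRNA. Over all tested genes, 16.5% rose and 20.1% fell in HepG2, and 34.9% rose and 36.4% fell in Huh7. Of the 15 mitochondrially encoded genes tested, 13 rose and 0 fell in HepG2 (median log2 fold change 0.57), and 9 rose and 0 fell in Huh7 (median 0.38), with 9 that rose in both. Summed over the 15, they had 27837 to 37354 CPM in the HepG2 libraries with UBL5 siRNA and 18823 to 22833 CPM in those with Ctrl-siRNA, without overlap. In Huh7 the sums were 27383 to 38320 CPM with UBL5 siRNA and 23749 to 32171 CPM with Ctrl-siRNA, and the groups overlapped. MT-CO1 and MT-CO2, subunits of cytochrome c oxidase, stood at -0.00 and -0.04 there and did not pass. MT-RNR2, the large ribosomal RNA, rose by 1.09 in HepG2 and 0.65 in Huh7, MT-ND1 by 1.05 and 0.83, and MT-ND2 by 0.66 and 0.47, all on the log2 scale. The libraries were made from poly(A)-selected RNA, which captures mitochondrial rRNA and mRNA to differing extents. No measurement of mtDNA copy number was used here, and whether the share of mitochondrial reads moved the values of the 9 nuclear genes was not tested.

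The 5 protein-coding genes most like TOP1MT were sought over the 12 libraries among 9310 genes, each value taken as log2 CPM less the Ctrl-siRNA mean of its line and likeness as the root mean square difference. EMP2, a membrane protein of the PMP22 family, was the nearest, at 0.20, followed by RPS27 at 0.21, SPOPL at 0.25, F2R at 0.27 and CCDC152 at 0.28. EMP2 averaged 16.1 CPM with UBL5 siRNA and 3.55 CPM with Ctrl-siRNA in HepG2 and 13.3 and 2.22 CPM in Huh7. SPOPL, a relative of the ubiquitin ligase adaptor SPOP, averaged 99.8 and 23.2 CPM in HepG2 and 123.2 and 26.5 CPM in Huh7. F2R, the thrombin receptor, averaged 34.6 and 9.51 CPM in HepG2 and 45.9 and 7.56 CPM in Huh7. RPS27 has pseudogenes that resemble it, and SELENOP shares 41.6% of the exon bases of CCDC152 on the opposite strand, so both values are uncertain. This likeness describes these libraries alone.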

How the data were processed

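Libraries from cells given UBL5 siRNA or Ctrl-siRNA were made with a stranded poly(A) kit. The authors aligned reads to GRCh38 with STAR 2.7.6a and deposited raw counts per gene from featureCounts, whose annotation and strand setting are not given in the sources used here. Per the submitters' processing notes, bcl2fastq, FastQC 0.11.9 and DESeq2 1.30.0 were also used. The tables further hold the authors' mean normalized count, fold change, error, statistic and p-values, which were not used. All count columns matched a sample (0 did not).

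Low genes were removed by filterByExpr at a minimum count of 10 and a minimum total of 15, and the rest were scaled by TMM and tested with edgeR 4.0.16 (R 4.3.3, limma 3.58.1) within each line, without a block, at a Benjamini-Hochberg adjusted p under 0.05 over all genes. Differences between lines were tested over all 12 libraries and the genes listed in both tables. A fit over 12 libraries shares 1 dispersion per gene between the lines. Its coefficient of variation was 0.124, against 0.189 in HepG2 and 0.0663 in Huh7 alone. A p-value for 1 line from such a fit therefore rests in part on the scatter of the other line. Replicate numbers are shared by the siRNA groups. Over genes of at least 5 mean CPM, residuals of same-numbered libraries correlated at 0.37, 0.27 and 0.27 in HepG2. Those of differently numbered libraries correlated at -0.31 to -0.06. The numbers may thus pair libraries. The main test leaves such a pairing out, so results with a replicate block are given as well. Within each group, no library duplicated another. Alternatives were RLE scaling, DESeq2 1.42.0, no filter or a minimum count of 50, a replicate block, 1 fit over 12 libraries and leaving out libraries. Steps were tested on simulated data.

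Coordinates and exons are from GENCODE 44 (GRCh38), which held 99.79% of HepG2 and 99.8% of Huh7 identifiers. Named were the 9 genes, UBL5, up to 3 genes per list called in both lines alike with the largest mean change, up to 2 called oppositely, the 5 most like TOP1MT (mean CPM of at least 5 in each line), and genes singled out after their values were seen (NRF1, GABPA, GABPB1, TOP1, ZNF696, MT-CO1, MT-CO2). Some genes that this rule names are not reported here. The members and lists were chosen with earlier results of these data known. Python 3.11.15, numpy 2.4.6, pandas 2.3.3 and matplotlib 3.10.9 were used.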

Additional observations from a re-analysis of the deposited data

Results flagged for a closer look

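The change of TWNK with UBL5 siRNA differed between the lines by -0.53 on the log2 scale (HepG2 minus Huh7, interaction over 12 libraries, edgeR adjusted p = 0.036). This call was lost in 10 of the 12 fits that left out 1 library, with an edgeR adjusted p of up to 0.093. TWNK was 1.24-fold higher with UBL5 siRNA than with Ctrl-siRNA in HepG2, where the libraries of the groups overlapped, and 1.84-fold higher in Huh7, where they did not.

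The change of TFB2M differed in the opposite direction, by 0.45 on the same scale (edgeR adjusted p = 0.0076). TFB2M was 1.84-fold higher with UBL5 siRNA in HepG2 and 1.37-fold higher in Huh7, with no overlap of libraries in either line.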

How the results depend on the processing

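With RLE scaling, no filter or a stricter filter on low counts, each of the 36 values per setting kept its direction and its side of the threshold. The count of genes of the set that fell in Huh7 (1, TFAM) was 0 with all 12 libraries in 1 fit, and 0 to 1 when 1 library was left out. Of the 8 genes besides TOP1MT, 3 to 6 rose in HepG2 over all alternatives, against 4, and 6 rose in Huh7 in each.

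With a replicate block, 6 of these 8 rose and 1 fell in HepG2, and 6 rose and 1 fell in Huh7. In HepG2, TWNK and TFB1M gained a call, as given beside them. The block also called the difference of POLRMT between the lines (-0.56, edgeR adjusted p = 0.021), so that 3 of the 8 differences passed in place of 2, and it changed no other call. In Huh7 the residuals of same-numbered libraries correlated at 0.42, 0.04 and 0.53, and those of differently numbered ones at -0.47 to 0.11. The numbers may thus pair libraries there too, although the libraries numbered 2 hardly correlated.

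Values near 0 changed sign when 1 library was left out. The Huh7 log2 fold change of TFB1M ran from -0.0331 to 0.12, the difference between the lines from -0.24 to 0.038 for POLG2 and from -0.0232 to 0.0438 for SSBP1. Without library 3 of both siRNAs in HepG2, an alternative chosen after seeing the data, the SSBP1 difference was -0.0403. The cause was not tested. TFB1M in Huh7 rests on 310 to 473 counts per library.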
